A study of Mus musculus with 10 samples.

Results

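The 10 microRNA hairpins described here make up 3 loci of the mouse genome: miR-17-92 (Mir17, Mir18, Mir19a, Mir20a, Mir19b-1 and Mir92-1), miR-106b-25 (Mir106b, Mir93 and Mir25) and miR-32 (Mir32). They were picked by name from the 1174 hairpins of the GENCODE vM21 annotation, and they were selected on measured values to the extent that the levels of their arms over the 5 groups were already known and that Mir32-3p had been named for its higher level in mPGCLCs. Levels are therefore given as a description, with no adjusted p for a member, and nothing is read from how many members passed a threshold on level. Of 747 mature arms with at least 1 read in the series, 19 belong to these hairpins. Reads were present in all 10 libraries for 12 of the 19, and at least 1 library held no read for the other 7.

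The series profiled small RNAs of Day 6 mouse Primordial Germ Cell Like Cells (mPGCLCs) and of non-PGCLCs, surrounding embryoid body (EB) cells sorted through a gate of their own. Each of the 5 groups has 2 libraries: E14 mPGCLC, E14 non-PGCLC, BG5 mPGCLC, BG5 non-PGCLC and SGET non-PGCLC. All derive from male mouse embryonic stem cells that were taken through Epiblast-Like Cells and then aggregated into EBs with BMP4, BMP8, LIF, SCF and EGF. E14 (129/Ola) carries no reporter and its mPGCLCs were, by the study's methods, sorted as Ssea1 and Cd61 double positive, BG5 (C57BL/6J/DBA/129) carries Blimp1-GFP and was sorted on Ssea1 and GFP, and SGET (B6CBA/129) carries Stella-GFP and Esg1-tdTomato. The sort gate thus changed with the line, so gate and line cannot be told apart, and SGET mPGCLCs were not analysed here. Each line stands for 1 genetic background. The labels call the libraries biological duplicates without naming separate cultures, so p-values measure only the spread between these libraries, which may be technical.

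A microRNA hairpin is cut by Drosha and Dicer into a 5p and a 3p arm, one of which is usually retained by Argonaute while the other is degraded. Bases 2 to 8 of the retained arm, the seed, pair with messenger RNAs, so arms with the same seed share many targets whatever locus they come from. The miR-17-92 cluster and its paralogs are known for promoting proliferation and survival, among other routes by lowering Bim and the cell cycle inhibitor p21, and they are well expressed in early embryonic cells, where Mir17hg is a target of Myc.

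The sequences below, from RefSeq (GRCm38.p6), are shown because the seed decides which arms are summed together in the results, with the seed in capitals. All 10 hairpins matched a RefSeq entry, with 19 mature sequences. A family here means the arms of these 10 hairpins with 1 seed. Arms of the paralogous miR-106a-363 cluster that carry the same seeds are given apart. The 4 arms of the AAAGUGC family share their seed across 2 of the loci:
miR-17-5p: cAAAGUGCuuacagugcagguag
miR-20a-5p: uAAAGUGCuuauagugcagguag
miR-93-5p: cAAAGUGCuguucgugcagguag
miR-106b-5p: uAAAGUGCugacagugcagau
Among the 10 hairpins, Mir18 alone gives an arm with the AAGGUGC seed:
miR-18a-5p: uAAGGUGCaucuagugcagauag
The miR-19 pair comes from miR-17-92 alone among the 3 loci:
miR-19a-3p: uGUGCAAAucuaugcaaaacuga
miR-19b-3p: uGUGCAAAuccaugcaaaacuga
All 3 loci contribute to the last family, and miR-32-5p is its miR-32 arm:
miR-92a-3p: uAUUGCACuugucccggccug
miR-25-3p: cAUUGCACuugucucggucuga
miR-32-5p: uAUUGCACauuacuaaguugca
Most Mir32 reads came from the opposite arm, whose seed is shared with none of the arms above, and 2 further opposite arms of miR-106b-25 were abundant:
miR-32-3p: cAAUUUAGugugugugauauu
miR-106b-3p: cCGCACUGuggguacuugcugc
miR-25-5p: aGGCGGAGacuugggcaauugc

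In GRCm38 the 6 hairpins of miR-17-92 lie within chr14:115043671-115044506 on the plus strand, in an exon of the lincRNA Mir17hg. The 3 hairpins of miR-106b-25 lie within chr5:138165321-138165818 on the minus strand, inside Mcm7, which encodes a subunit of the replicative helicase. Mir106b is intronic, and Mir93 and Mir25 overlap an exon of at least 1 annotated Mcm7 transcript. Mir32 lies at chr4:56895229-56895298 on the minus strand, in an intron of Tmem245. The paralogous miR-106a-363 cluster (Mir106a, Mir18b, Mir20b, Mir19b-2, Mir92-2 and Mir363) lies at chrX:52741693-52742567 on the minus strand. Reads of miR-92a-3p and of miR-19b-3p fit Mir92-1 and Mir92-2, or Mir19b-1 and Mir19b-2, equally over most of their length and were counted once for each pair.

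Libraries held 7421061 to 14444567 reads, of which 14.97% to 34.5% fell in microRNA arms and 42.8% to 67.3% were only 15 to 19 nt long. The microRNA share moved with the groups: it was 34.5% and 31.6% in E14 mPGCLC against 23.02% and 17.9% in E14 non-PGCLC, but 21.7% and 14.97% in BG5 mPGCLC against 32.5% and 21.6% in BG5 non-PGCLC. The hairpins of the miR-290 and miR-302 clusters, typical of early embryonic cells, took 19.7% to 22.4% of reads in E14 mPGCLC, 5.33% to 7.63% in BG5 mPGCLC, 9.36% to 13.5% in E14 non-PGCLC, 14.6% to 16.1% in SGET non-PGCLC and 0.82% to 0.941% in BG5 non-PGCLC, with Mir292b at 0 in every library. The 4 mesenchymal hairpins of miR-199 and miR-214 took 1.32% to 2.20% in BG5 non-PGCLC and at most 0.124% elsewhere, and the 12 let-7 hairpins 2.48% to 3.16% in BG5 non-PGCLC and at most 1.005% elsewhere. Of the 4 blood hairpins Mir451a and Mir144 were at 0 in every library, and the list, carried by Mir223 and Mir142, took at most 0.00825%. BG5 non-PGCLC libraries were thus the furthest from an early embryonic profile, and the part of this in the results on BG5 was not tested. These are bulk samples, in which fewer cells of a type and less RNA per cell cannot be told apart. The deposited reads are of small RNA, so the germ cell label was not checked against its defining genes here.

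Levels are given in RPM, the reads of an arm scaled to 1000000 reads of the library in all. A value per microRNA read has the library's reads in microRNA arms as its denominator instead. Groups are called separate when every library of one lies above every library of the other. With 2 libraries a group this can occur by chance, and how many of all arms were separate was not counted. In E14 the microRNA share of reads was itself separate, and RPM values carry that difference. The 19 arms together took 9.07% and 9.19% of microRNA reads in E14 mPGCLC, 9.32% and 8.93% in E14 non-PGCLC, 16.1% and 17.1% in BG5 mPGCLC, 10.4% and 8.08% in BG5 non-PGCLC and 11.4% and 11.1% in SGET non-PGCLC. On this scale the BG5 mPGCLC libraries lay above all others, and the E14 groups overlapped. In RPM the sum was separate in E14, at 31250 and 29041 RPM in mPGCLC against 21461 and 15957 RPM in non-PGCLC, overlapped in BG5 at 1.19-fold, and was highest in an SGET library at 35895 RPM. One arm, miR-92a-3p, supplied 74.1% to 84.9% of these reads in every library.

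**Figure D1:**
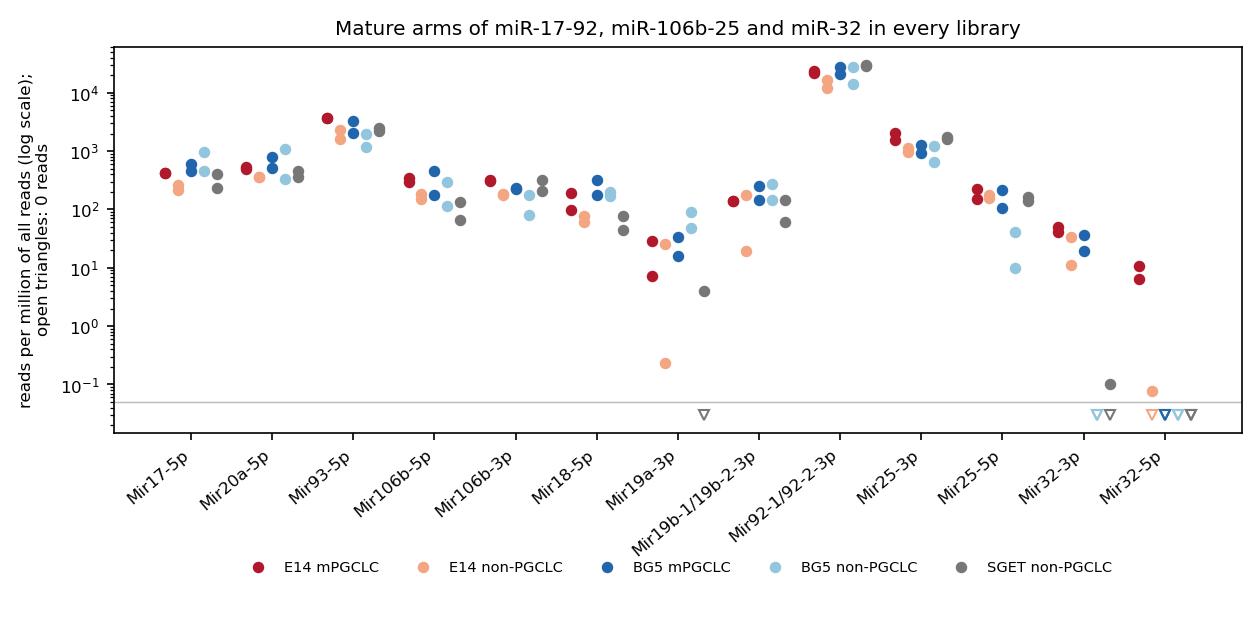
Level of the mature arms in every library, in RPM on a log axis, with 1 point per library coloured by group and open triangles for libraries with no read. The miR-92a-3p points lie at 11947 or above in every library, Mir93-5p and Mir25-3p come next, and the Mir32-3p points of BG5 non-PGCLC sit at 0.

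The AAAGUGC family, best known for restraining p21, was led by Mir93-5p. Mir93-5p stood at 3746 and 3679 RPM in E14 mPGCLC, 2292 and 1621 RPM in E14 non-PGCLC, 3246 and 2081 RPM in BG5 mPGCLC, 1971 and 1157 RPM in BG5 non-PGCLC and 2520.2 and 2169.7 RPM in SGET non-PGCLC. In both lines every mPGCLC library was above every non-PGCLC library, by 1.90-fold on the group means in E14 and 1.70-fold in BG5. Ordered by mean, E14 mPGCLC came first at 3713 ± 47.6 RPM (SD, n = 2), then BG5 mPGCLC, SGET non-PGCLC, E14 non-PGCLC and last BG5 non-PGCLC at 1564 ± 576 RPM. Per microRNA read the groups of both lines were still separate, at 1.18-fold in E14 and 2.52-fold in BG5. E14 mPGCLC alone was clear of its neighbour in that order, and the ranges of the other neighbours overlapped.

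Mir17-5p, the arm that names the miR-17-92 cluster, was at 421 and 423 RPM in E14 mPGCLC against 259.8 and 218 RPM in E14 non-PGCLC. In BG5 it was at 600.3 and 464 RPM in mPGCLC against 951 and 448 RPM in non-PGCLC, and SGET non-PGCLC had 231 and 409 RPM. The E14 groups were separate at 1.77-fold, whereas in BG5 the groups overlapped and the highest library of all was a non-PGCLC one. Per microRNA read the E14 fold was 1.09, still separate, and BG5 overlapped at 1.17-fold. Mir20a-5p, from the same cluster and nearly the same in sequence, ran at 527 and 486 RPM against 356 and 365 RPM in E14. Its BG5 values were 806 and 514 RPM in mPGCLC and 1103 and 333 RPM in non-PGCLC, with 356 and 457 RPM in SGET. It followed the same pattern as Mir17-5p: separate in E14 at 1.40-fold in RPM, and in BG5 the mPGCLC values lay between the 2 non-PGCLC values. The spread between the BG5 non-PGCLC libraries was wider than the difference between any group means for this arm. Both verdicts turned per microRNA read: in E14 mPGCLC lay below non-PGCLC, at 0.855 of its mean, and in BG5 it lay above, at 1.45-fold.

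Mir106b-5p was the least abundant of the 4 arms in every library, with 299 and 348 RPM in E14 mPGCLC and 151 and 181 RPM in E14 non-PGCLC. BG5 mPGCLC had 459 and 180.1 RPM, BG5 non-PGCLC 299 and 115 RPM, and SGET non-PGCLC 136 and 66.0 RPM. The E14 groups were separate at 1.95-fold and the BG5 groups overlapped in RPM, whereas per microRNA read E14 overlapped at 1.18-fold and BG5 was separate at 2.28-fold. Summed over the 4 arms, the family reached 4994 and 4936 RPM in E14 mPGCLC, 3059 and 2385 RPM in E14 non-PGCLC, 5111 and 3239 RPM in BG5 mPGCLC, 4324 and 2054 RPM in BG5 non-PGCLC and 3244 and 3101 RPM in SGET non-PGCLC. As a percentage of microRNA reads it was 1.45% and 1.56% against 1.33% and 1.34% in E14, and 2.35% and 2.16% against 1.33% and 0.953% in BG5, so on this scale the groups of both lines were separate. Mir93-5p made up 68.0% to 75.0% of that sum in the E14 libraries but 45.6% and 56.3% in BG5 non-PGCLC, where Mir17-5p and Mir20a-5p took a larger part.

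Mir18-5p, the AAGGUGC arm, was at 99.6 and 188 RPM in E14 mPGCLC and 76.0 and 61.9 RPM in E14 non-PGCLC. BG5 mPGCLC held 324 and 175 RPM against 198 and 168 RPM in BG5 non-PGCLC, and SGET non-PGCLC held 77.0 and 45.3 RPM. It was separate in E14, with a fold of 2.08 on the means, and overlapped in BG5. With microRNA reads as denominator this was the other way round, with an overlap at 1.31-fold in E14 and separate groups at 1.92-fold in BG5. The GUGCAAA family, the miR-19 arms, was scarce and variable. Its more abundant member, miR-19b-3p, had 141 and 138 RPM in E14 mPGCLC, 19.7 and 174 RPM in E14 non-PGCLC, 256 and 145 RPM in BG5 mPGCLC, 277 and 143 RPM in BG5 non-PGCLC and 59.8 and 147 RPM in SGET non-PGCLC. Mir19a-3p was at 7.37 and 28.7 RPM, 25.6 and 0.233 RPM, 16.1 and 33.8 RPM, 92.1 and 47.6 RPM and 3.96 and 0 RPM in the same order. Neither separated the E14 groups, and for miR-19b-3p the replicates of E14 non-PGCLC differed from each other more than any group means did. In BG5, both mPGCLC libraries were below both non-PGCLC libraries for Mir19a-3p, at 0.357 of the non-PGCLC mean in RPM, while miR-19b-3p overlapped. Per microRNA read the Mir19a-3p groups overlapped in BG5, at 0.595, and miR-19b-3p was higher in mPGCLC, at 1.42-fold.

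In the AUUGCAC family, miR-92a-3p was far ahead, at 23291 and 21526 RPM in E14 mPGCLC, 16734 and 11947 RPM in E14 non-PGCLC, 27475 and 20693 RPM in BG5 mPGCLC, 27342 and 14174 RPM in BG5 non-PGCLC and 28476 and 30472 RPM in SGET non-PGCLC. The highest mean was that of SGET non-PGCLC, 29474 ± 1411 RPM (SD, n = 2). E14 mPGCLC lay above E14 non-PGCLC at 1.56-fold in RPM, a direction that turned when microRNA reads were the denominator (log2 change -0.040), and the BG5 groups overlapped. Mir25-3p gave 2037 and 1546 RPM in E14 mPGCLC, 1136 and 949 RPM in E14 non-PGCLC, 1279 and 915 RPM in BG5 mPGCLC, 1242 and 662 RPM in BG5 non-PGCLC and 1726 and 1587 RPM in SGET non-PGCLC. It showed the same order as miR-92a-3p within E14, at 1.72-fold, and the same overlap within BG5. Per microRNA read both arms overlapped in E14, Mir25-3p at 1.05-fold, and were separate in BG5, miR-92a-3p at 1.77-fold and Mir25-3p at 1.74-fold. As a percentage of microRNA reads the 3 arms of the family together were 7.35% and 7.31% in E14 mPGCLC and 7.76% and 7.22% in E14 non-PGCLC, which overlap. On that denominator BG5 mPGCLC, at 13.2% and 14.4%, lay above BG5 non-PGCLC, at 8.79% and 6.88%, so the choice of denominator decided which line separated.

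The opposite arms of miR-106b-25 did not all follow their partners. Mir106b-3p was at 315 and 306 RPM in E14 mPGCLC, 183 and 178 RPM in E14 non-PGCLC, 229 and 220.2 RPM in BG5 mPGCLC, 180.3 and 79.1 RPM in BG5 non-PGCLC and 210.4 and 324 RPM in SGET non-PGCLC. In RPM its mPGCLC libraries were all above the non-PGCLC libraries of their own line, at 1.72-fold in E14 and 1.73-fold in BG5, but per microRNA read the E14 groups overlapped at 1.05-fold and BG5 was separate at 2.74-fold. Up to 27.4% of its reads in a library started over 5 bases from the most used start, and these made up 23.2% and 9.28% in BG5 mPGCLC against 0% in both BG5 non-PGCLC libraries. Without such reads, an alternative added after the values were seen, BG5 was at 176 and 199.8 RPM against 180.3 and 79.1 RPM, which overlap, and E14 was separate at 1.91-fold. Mir25-5p was at 228 and 152 RPM in E14 mPGCLC, 160.2 and 179 RPM in E14 non-PGCLC, 215 and 104 RPM in BG5 mPGCLC, 41.6 and 9.90 RPM in BG5 non-PGCLC and 141 and 161 RPM in SGET non-PGCLC. The BG5 non-PGCLC libraries stood apart below the other 8, so that BG5 showed a 6.21-fold difference while the E14 groups overlapped in RPM. Per microRNA read E14 mPGCLC was below E14 non-PGCLC, at 0.673 of its mean, and the BG5 fold was 9.72. The remaining arms were low: Mir18-3p ranged from 0.0775 to 60.0 RPM, Mir93-3p from 7.62 to 87.7 RPM, Mir92-1-5p from 0 to 26.8 RPM, Mir17-3p from 0 to 52.1 RPM and Mir20a-3p from 0 to 15.9 RPM. Mir19b-1-5p was seen as 1 read in 1 SGET library.

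Counts of all arms were then fitted together with edgeR's quasi-likelihood test after TMM scaling, which rescales libraries so that most arms do not change. Of 550 arms tested, 43 (7.82%) rose and 37 (6.73%) fell at an adjusted p (Benjamini-Hochberg) under 0.05 in mPGCLC against non-PGCLC over E14 and BG5 together. All but Mir19b-1-5p of the members were tested, and of these 18, 6 were among the arms that rose and 0 among those that fell, with 7 under an unadjusted p of 0.05. The 6 were Mir93-5p (log2 change 1.14, SE 0.178), miR-92a-3p (0.75, SE 0.145), Mir25-3p (0.81, SE 0.199), Mir25-5p (1.73, SE 0.492), Mir106b-3p (1.13, SE 0.361) and Mir32-3p. Over 18 alternatives, each library left out in turn included, the call of Mir106b-3p was lost in 13, that of Mir32-3p in 13, that of Mir25-5p in 8, that of Mir25-3p in 3 and that of miR-92a-3p in 2, while that of Mir93-5p was lost in 0. All 3 hairpins of miR-106b-25 and Mir32 are among the 6, and the only miR-17-92 arm is the one shared with its paralog. The median log2 change of the 18 members was 1.10 against 0.16 over all 550 arms, and 1.11 with the 3 arms that have a group at 0 set to their bound of 3 reads per library. It was positive for 16 of the 18 and for 53.5% of all arms. Since the levels were known when the members were chosen, nothing is read from these counts.

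Within E14 alone 3 arms rose (0.545%) and 13 fell (2.36%), and by edgeR 0 of the 18 members did either, with 3 under an unadjusted p of 0.05; DESeq2 called 1, Mir17-3p, among 19 arms that rose of 496 with an adjusted p (3.83%). Mir93-5p had a log2 change of 0.78 (SE 0.249) there and Mir25-5p one of 0.01 (SE 0.677). Within BG5 alone 47 arms rose (8.55%) and 30 fell (5.45%), with 7 members under an unadjusted p of 0.05 and 6 called, all higher: Mir93-5p (1.51, SE 0.253), miR-92a-3p (1.001, SE 0.206), Mir25-3p (0.98, SE 0.282), Mir25-5p (3.46, SE 0.746), Mir106b-3p (1.64, SE 0.517) and Mir32-3p. These BG5 calls were lost in 14 of the 18 alternatives for Mir106b-3p, 8 for Mir32-3p, 6 for Mir25-3p and 1 each for Mir25-5p, miR-92a-3p and Mir93-5p. The median of the members was 0.63 in E14 and 1.06 in BG5, and that of all arms 0.00 and -0.01. The difference between the effects in BG5 and E14 was itself tested: 29 arms (5.27%) were called and by edgeR 0 of the 18 members, with 2 under an unadjusted p of 0.05, against 2 members, Mir25-5p and Mir32-3p, by DESeq2, both with a positive difference, like 47 called of 507 arms (9.27%). These 2 contrasts do not share libraries, but the pooled one is their mean.

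The calls of the members changed with the scaling. TMM factors were 1.96 and 1.27 in BG5 non-PGCLC and 0.719 to 0.859 in the 4 E14 libraries, so TMM lowers every BG5 non-PGCLC value against RPM. With all reads of the library as the only scaling, the median of all arms in BG5 moved from -0.01 to -0.76, the pooled contrast kept 1 member, Mir93-5p, and the BG5 contrast kept 0. With the reads in microRNA arms as library size, Mir93-5p alone remained in the pooled contrast, and Mir25-5p, miR-92a-3p and Mir93-5p in BG5. Over all arms the split of calls was 43 higher of 80 with TMM, 28 higher of 72 with total reads and 32 higher of 84 with microRNA reads. In BG5 it was 47 higher of 77, 27 of 67 and 37 of 70, and in E14 3 of 16, 0 of 9 and 1 of 27. Mir17-5p, Mir20a-5p and miR-19b-3p changed direction in BG5 with total reads, Mir17-5p from 0.41 to -0.39. Mir20a-5p, Mir19a-3p, miR-19b-3p, miR-92a-3p, Mir25-5p, Mir92-1-5p and Mir93-3p changed direction in E14 with microRNA reads, miR-92a-3p from 0.50 to -0.040. Mir93-5p was higher in mPGCLC of both lines under all 3.

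**Figure D2:**
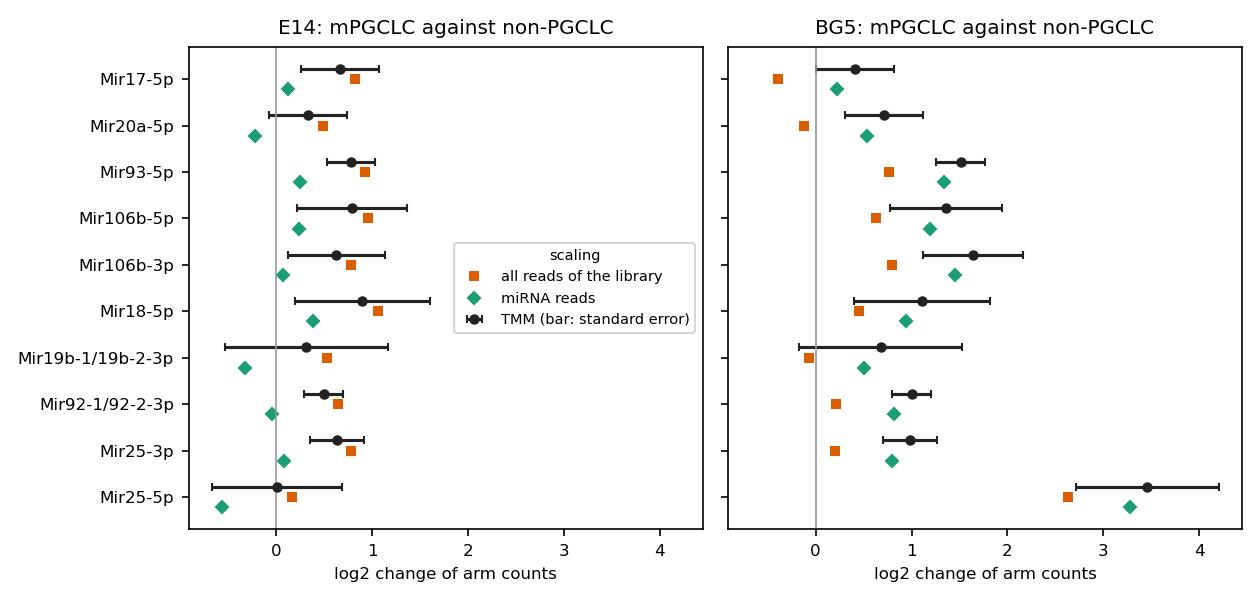
Fitted log2 change of arm counts, mPGCLC against non-PGCLC, in E14 (left) and BG5 (right) under 3 scalings: TMM with its standard error as a bar, all reads of the library, and microRNA reads. In BG5 the total-read squares lie to the left of the TMM points for every arm, while Mir93-5p is to the right of 0 under each scaling in both lines.

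A further contrast left the mPGCLCs out. Of the 550 arms, 101 (18.4%) differed between E14, BG5 and SGET non-PGCLC, 5 members among them: Mir25-3p, Mir25-5p, Mir32-3p, miR-92a-3p and Mir93-5p. Among these groups, BG5 non-PGCLC had the lowest library and the lowest mean in RPM for Mir25-3p, Mir25-5p and Mir93-5p, and for miR-92a-3p the highest mean belonged to SGET. This test shares the E14 and BG5 non-PGCLC libraries with the contrasts above. With total reads as scaling only Mir32-3p was called.

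Mir32, the least abundant of the 3 loci, was present in some groups and at or near 0 in others. Mir32-3p stood at 40.9 and 50.6 RPM in E14 mPGCLC, 33.4 and 11.3 RPM in E14 non-PGCLC and 36.2 and 19.3 RPM in BG5 mPGCLC. No read was found in either BG5 non-PGCLC library, which allows up to 0.317 and 0.208 RPM (3 reads each), and the SGET libraries held 0 reads and 1 read. Read counts put BG5 mPGCLC at least 105.7-fold above BG5 non-PGCLC, against a floor of 3 reads per library that covers counting error only. PCR copies are not marked, so that fold is no bound on molecules. In E14 the mPGCLC mean was 2.04 times the non-PGCLC mean, with the groups separate but close, at 40.9 against 33.4 RPM, and per microRNA read they overlapped at 1.34-fold. The non-PGCLC cells of E14 carried Mir32-3p in a range that overlapped that of BG5 mPGCLC, whereas those of BG5 and SGET were at or near 0. The miR-290 and miR-302 clusters took 19.7% to 22.4% of reads in E14 mPGCLC and 9.36% to 13.5% in E14 non-PGCLC. Their share was 5.33% to 7.63% in BG5 mPGCLC, 0.82% to 0.941% in BG5 non-PGCLC and 14.6% to 16.1% in SGET non-PGCLC. Whether Mir32-3p goes with these shares was not tested.

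The Mir32 signal rests on 1776 reads in 7 of the 10 libraries and on few distinct sequences. Of these, 959 reads of 4 sequences had the most used start of the 3p arm, 362 reads of 3 sequences started 1 base to either side, 315 reads were a single loop sequence and 140 reads of 2 sequences were from the 5p arm. The main 3p read is the RefSeq sequence shown above. It had 298 reads in BG5 mPGCLC replicate 1 and 0 in replicate 2 and in E14 non-PGCLC replicate 1. BG5 mPGCLC replicate 2 held 117 reads of a sequence shifted by 1 base and 80 of the loop. The BG5 mPGCLC replicates thus shared no Mir32 sequence. The loop read, uguugucacggccucaaug, was counted under the 3p arm by the matching. Without it, an alternative added after the values were seen, Mir32-3p was at 40.9 and 29.5 RPM in E14 mPGCLC, 24.7 and 11.3 RPM in E14 non-PGCLC and 36.2 and 11.4 RPM in BG5 mPGCLC. The order of the groups held, with the BG5 mPGCLC and E14 non-PGCLC ranges overlapping, and the BG5 bound became 90.8-fold. Mir32-5p, the arm with the AUUGCAC seed, was at 6.53 and 10.6 RPM in E14 mPGCLC and was 1 read in 1 of the other 8 libraries. PCR copies are not marked, so the number of molecules behind these reads is unknown.

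**Figure D3:**
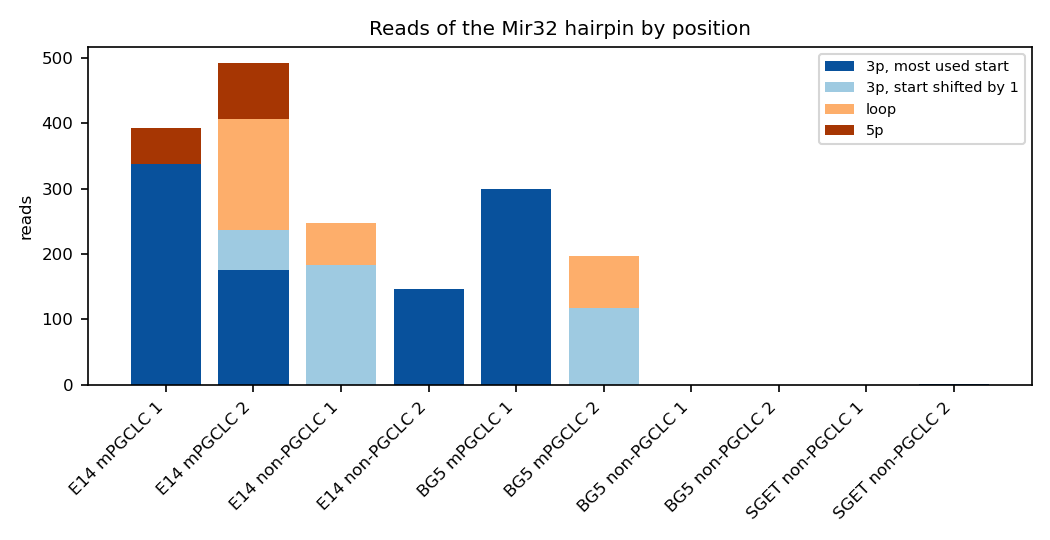
Reads of the Mir32 hairpin in each library, stacked by position: 3p arm at its most used start, 3p arm shifted by 1 base, loop, and 5p arm. The E14 libraries and BG5 mPGCLC hold all but 1 of the 1776 reads, and 5p reads occur in E14 libraries only.

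Base 22, just past the 3′ end of the RefSeq mature sequence of miR-92a-3p, differs between its 2 loci, so the reads below are shown for it, with that base in capitals. Counting from 1 at the 5′ end, Mir92-1 and Mir92-2 differ by U22A, the Mir92-1 base first:
Mir92-1: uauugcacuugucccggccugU
Mir92-2: uauugcacuugucccggccugA
The first sequence was read 1238179 times in the 10 libraries and the second 381547 times. Among reads that reach base 22, the Mir92-2 base made up 29.1% and 28.5% in E14 mPGCLC, 26.4% and 26.1% in E14 non-PGCLC, 27.7% and 29.1% in BG5 mPGCLC, 10.7% and 6.31% in BG5 non-PGCLC and 23.5% and 27.3% in SGET non-PGCLC. The BG5 non-PGCLC libraries stood apart below the other 8. With at least 119210 reads behind each share, the 95% Wilson interval was at most 0.250 points to either side, which covers counting error only, for PCR copies are not marked. An A added after a 21-base read would look the same as the Mir92-2 base, and this part of the share cannot be told apart from it.

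Split this way, reads with the Mir92-1 base were at 18449 and 13827 RPM in BG5 mPGCLC and 23387 and 12539 RPM in BG5 non-PGCLC, which overlap. Reads with the Mir92-2 base were at 7067 and 5673 RPM against 2813 and 844 RPM, which do not. Mir92-2-5p, the opposite arm of that locus, did overlap in BG5, with 58.8 and 118 RPM in mPGCLC against 176 and 0.0692 RPM in non-PGCLC. In E14 both were higher in mPGCLC in RPM: 15451 and 14574 RPM against 11830 and 8202 RPM for the Mir92-1 base, and 6335 and 5822 RPM against 4234 and 2902 RPM for the other. Scaled to microRNA reads, the E14 log2 change of Mir92-1/Mir92-2-3p as a whole turned to -0.04. Reads that also carry the next templated base of either locus, an alternative added after the values were seen, were far fewer, 4312 to 14585 a library. In them the Mir92-2 share was 9.39% and 7.64%, 5.43% and 15.8%, 11.4% and 12.2%, 2.27% and 0.0268%, and 5.52% and 15.6% in the order of groups above. BG5 non-PGCLC was again the lowest group, its second library with 2 reads of Mir92-2 among them, but the replicates of E14 non-PGCLC and SGET differed by more than 2 times. This comparison was chosen after the values were seen and carries no test.

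The other arms of the miR-106a-363 cluster, those with reads of their own, summed to 837 and 940 RPM in E14 mPGCLC, 789 and 591 RPM in E14 non-PGCLC, 1351 and 1102 RPM in BG5 mPGCLC, 703 and 166 RPM in BG5 non-PGCLC and 940 and 754 RPM in SGET non-PGCLC. In both lines the mPGCLC libraries were above the non-PGCLC ones in RPM, but as a share of microRNA reads the E14 order turned, with 0.243% and 0.298% in mPGCLC against 0.343% and 0.331% in non-PGCLC. Among 7 such arms tested, 3 were called higher in the pooled contrast, Mir20b-5p, Mir363-3p and Mir363-5p, beside 7.82% of all arms. The same 3 were called in BG5 alone (8.55% of all arms) and 0 of the 7 in E14 by edgeR, where Mir363-5p had a log2 change of -0.04. Mir363-3p, whose sequence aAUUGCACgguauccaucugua holds the seed of miR-92a, Mir25-3p and Mir32-5p, was at 147 and 228 RPM in E14 mPGCLC, 97.0 and 114 RPM in E14 non-PGCLC, 371 and 302 RPM in BG5 mPGCLC, 111 and 45.8 RPM in BG5 non-PGCLC and 321 and 237 RPM in SGET non-PGCLC. In RPM it was higher in the mPGCLC libraries of both lines, at 1.78-fold and 4.30-fold, while per microRNA read the E14 groups overlapped at 1.09-fold and the BG5 fold was 6.74. As a percentage of microRNA reads, the unshared arms of miR-17-92 were 0.827% and 0.843% in BG5 mPGCLC and 0.735% and 0.499% in BG5 non-PGCLC, miR-106b-25 was 2.54% and 2.36% against 1.17% and 0.942%, and miR-106a-363 was 0.622% and 0.736% against 0.216% and 0.0771%. All 3 clusters were higher in BG5 mPGCLC on this scale, at 1.35-fold, 2.33-fold and 4.63-fold. In E14 the same ratios were 1.02, with an overlap, 1.11, separate, and 0.802, with mPGCLC below. In RPM the BG5 groups overlapped for miR-17-92, at 0.883, and for miR-106b-25, at 1.56-fold, and were separate for miR-106a-363, at 2.82-fold. The E14 groups were separate in RPM for all 3, at 1.66-fold, 1.80-fold and 1.29-fold, as they were for the microRNA share of reads.

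**Figure D4:**
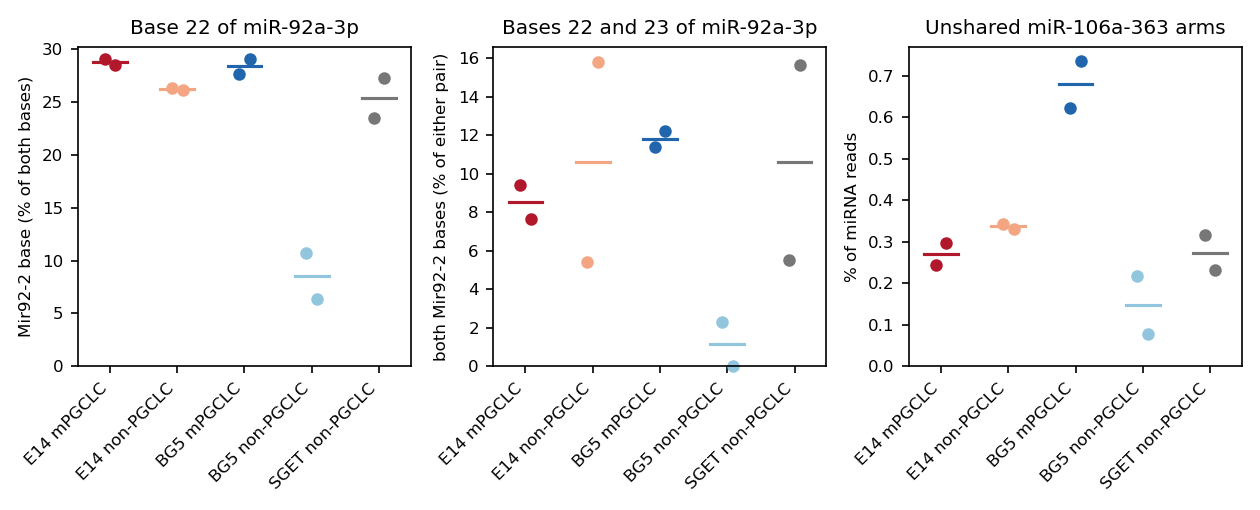
Share of reads with the Mir92-2 base at base 22 of miR-92a-3p (left), the same among reads that also carry the next templated base (middle), both in percent, and the unshared miR-106a-363 arms as a percentage of microRNA reads (right), with 1 point per library and a line at each group mean. The BG5 non-PGCLC points are the lowest in the left panel, at 10.7% and 6.31%, and the middle panel shows the wide spread of E14 non-PGCLC and SGET.

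The ratio of the 2 arms of a hairpin was fitted with limma, as the log2 ratio of 3p to 5p reads, over 89 hairpins with at least 10 reads in each library. Neither the cell type contrast nor its difference between BG5 and E14 called any hairpin (0 of 89, 0.00%, for each), members included (0 of 7). By unadjusted p under 0.05 the counts of members were 0 and 2. Mir32 was left out. The ratio comes from the same reads as the arm levels, which were known, so these counts describe the members and nothing is read from them. For Mir25 the 3p arm made up 89.9% and 91.0% of reads in E14 mPGCLC, 87.6% and 84.1% in E14 non-PGCLC, 85.6% and 89.8% in BG5 mPGCLC, 96.8% and 98.5% in BG5 non-PGCLC and 92.4% and 90.8% in SGET non-PGCLC. BG5 non-PGCLC was the highest group and E14 mPGCLC was above E14 non-PGCLC. The limma difference of the log2 ratio was -0.996 (SE 0.467) over both lines and -3.26 (SE 0.934) for BG5 minus E14. Mir17 had the other unadjusted p under 0.05, with a BG5 minus E14 difference of -12.06 (SE 4.82) that rests on libraries without any 3p read.

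Mir106b was the hairpin nearest to equal use of its arms in every library but SGET replicate 2, where Mir18 was nearer, at 39.0% 3p. Its 3p share was 51.2% and 46.8% in E14 mPGCLC, 54.7% and 49.6% in E14 non-PGCLC, 33.3% and 55.0% in BG5 mPGCLC, 37.6% and 40.7% in BG5 non-PGCLC and 60.7% and 83.1% in SGET non-PGCLC, each within at most 1.96 points by the Wilson interval. Without reads that started over 5 bases from the most used start, the share moved to 27.7% and 52.6% in BG5 mPGCLC, 46.7% in E14 non-PGCLC replicate 1 and 57.2% in SGET replicate 1. The cell types overlapped within each line, SGET lay above the rest, and BG5 non-PGCLC lay below both E14 groups. Mir17 (3p share up to 10.7%), Mir20a (up to 4.17%) and Mir93 (0.553% to 2.64%) kept to the 5p arm, Mir18 was 0.125% to 39.0% 3p, and Mir19a, Mir19b-1 and Mir92-1 were at least 99.8% 3p wherever they had reads.

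Read length, 3′ mismatches and 5′ starts, none of which uses the level, were tested over the 174 arms with at least 50 reads in every library, 11 of them members. Mean read length called 0 arms (0.00%) in the cell type contrast and 0 (0.00%) in the difference between lines, and 0 members by limma, with 1 and 0 under an unadjusted p of 0.05. That 1 was Mir93-5p, whose reads were 0.195 nt shorter in mPGCLC (limma difference -0.195, SE 0.0725, adjusted p = 0.289). The share of reads with a mismatch to the hairpin after base 18, the mark of bases added to the 3′ end, called 1 arm (0.575%) in each contrast and 0 members by limma, with 1 and 2 under an unadjusted p of 0.05. The share of reads not at the most used 5′ start, which would shift the seed, called 3 arms (1.72%) and 7 arms (4.02%), again with 0 members by limma, and 1 and 0 under an unadjusted p of 0.05.

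One added A was common on Mir17-5p and Mir20a-5p. The templated 23-nt read of Mir17-5p gave 40.8% of its 44123 reads, and that read with an extra A, caaagugcuuacagugcagguaga, gave 28.5%. Over the libraries 32.03% and 19.1% of Mir17-5p reads ended in an untemplated A in E14 mPGCLC, 23.03% and 42.9% in E14 non-PGCLC, 34.7% and 21.7% in BG5 mPGCLC, 30.8% and 26.6% in BG5 non-PGCLC and 63.2% and 22.2% in SGET non-PGCLC. The replicates differed as much as the groups did. For Mir20a-5p the shares were 18.3% and 20.98%, 20.2% and 19.1%, 27.6% and 27.8%, 26.04% and 31.4%, and 9.33% and 16.3% in that order of groups. Every BG5 library was above every E14 and SGET library for this arm. On Mir106b-5p they ran from 0% in 3 libraries to 29.9% in BG5 non-PGCLC replicate 1, with a median of 3.85%. They were 7.72% to 18.1% on Mir93-5p, 6.20% to 11.4% on miR-92a-3p and 2.28% to 12.0% on Mir25-3p. An A added to a 21-base read of miR-92a-3p matches Mir92-2, and on Mir25-3p it matches the hairpin. Such reads are not counted, so the shares of these arms may be too low beside those of Mir17-5p and Mir20a-5p.

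**Figure D5:**
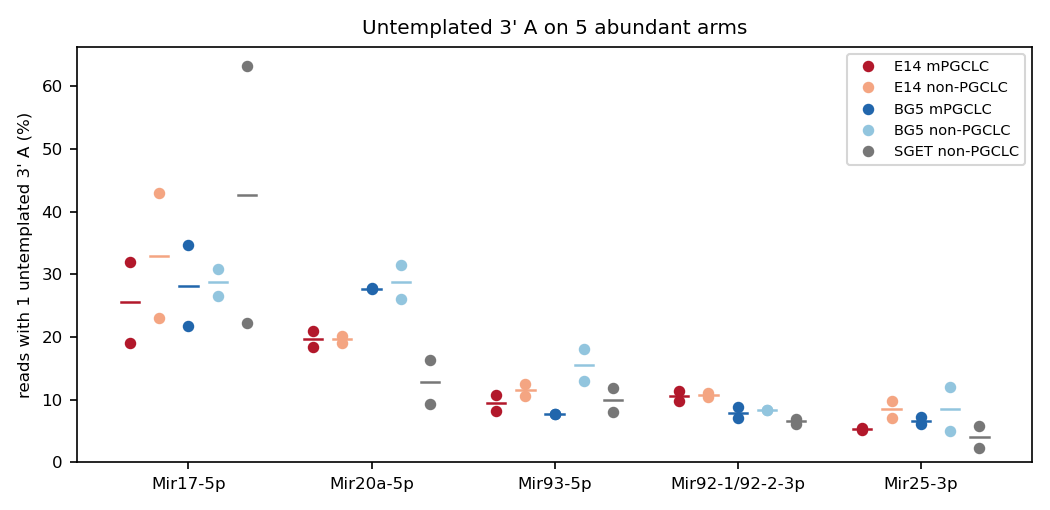
Percentage of reads with 1 untemplated 3′ A on 5 abundant arms, with 1 point per library and a short line at each group mean. Mir17-5p shows the widest spread, from 19.1% to 63.2%, and the AUUGCAC arms on the right lie at or below 12.0%. An added A that matches a hairpin is not counted, which affects the AUUGCAC arms.

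Arms outside these clusters whose level across the 10 libraries was most like the sum of the members' more abundant arms were Mir148a-3p (Pearson r = 0.873), Mir429-3p (0.841) and Mir148a-5p (0.830), among 525 arms compared on log2(RPM + 1). These are descriptions over libraries that share groups and scaling, and carry no test. The sum consists mostly of miR-92a-3p. Mir429-3p ran from 0.0775 to 256 RPM and Mir148a-5p from 0 to 24.6 RPM, so the likeness includes libraries near 0.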

How the data were processed

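Small RNA libraries of 10 samples were prepared by the authors with an adapter kit that carries 4 random bases at each read end, which were cut off and not used to mark PCR copies. Reads of 2 instruments were joined per library. Per the labels, cutadapt 3.2 and STAR 2.5.3a were used with GRCm38, keeping reads of at least 15 nt and reporting 1 random position for reads with many. The authors deposited counts: each distinct read sequence with its raw read count in each library, with no normalization.

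From these, reads of 18 to 26 nt were matched in sense to the 1174 hairpins of GENCODE vM21 (first 18 nt exact, up to 2 later mismatches) and summed per mature arm. Arms were merged where more of the reads of either matched both than not. RPM scales the reads of an arm to 1000000 reads of the library in all. Arm counts were tested with edgeR 4.0.16 (quasi-likelihood, TMM, library size all reads, filterByExpr, 5 group means), and arm ratios, lengths, mismatches and starts with limma 3.58.1 (pseudocount 0.5, minimum 10 reads per hairpin or 50 per arm), all with Benjamini-Hochberg adjustment over all features tested at 0.05, two-sided. DESeq2 1.42.0 was an alternative, in R 4.3.3. Both fits recovered known changes in simulated data. How small a change they can find with 2 libraries a group was not tested. Other alternatives were the scaling, low-count filter, exact matches, reads of 20 to 24 nt, each library left out and a replicate block. Depth was 7421061 to 14444567 reads, and Wilson intervals (95%) and floors of 3 reads cover counting error only.

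The members and lists were chosen with earlier results of these data known. All mature arms of the 10 hairpins were accounted for, the more abundant arm in every library and the others by range, with Mir106b-5p, Mir106b-3p and Mir25-5p in full because both arms were abundant. The most similar arms were the 3 with the highest Pearson r. Same-numbered replicates had deviations correlated at -0.0591 in E14 and 0.00638 in BG5 over 550 arms, so the numbers were not taken as pairs.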

Additional observations from a re-analysis of the deposited data

Results flagged for a closer look

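Mir17-3p, the opposite arm of Mir17-5p, moved one way in every E14 library and the other way in every BG5 library when given in RPM of all reads. It was at 3.75 and 50.6 RPM in E14 mPGCLC and at 0 in both E14 non-PGCLC libraries. Read counts put it at least 85.3-fold higher in mPGCLC, against a floor of 3 reads per library that covers counting error only. Within E14, Mir17-3p was not called by edgeR (log2 change 11.43, SE 5.37) but was by DESeq2. In BG5 it was at 0 and 11.7 RPM in mPGCLC and 16.3 and 52.1 RPM in non-PGCLC, a ratio of the means of 0.172. Per microRNA read the BG5 groups overlapped, at a ratio of 0.269. SGET non-PGCLC had 5.76 and 0 RPM. The edgeR test of the BG5 minus E14 difference did not call it (log2 difference -13.12, SE 6.24). In each group with reads, 1 library held most of them, and what sets this spread was not tested.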

How the results depend on the processing

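The number of members called was 6 pooled, 0 in E14, 6 in BG5, 0 for the difference between lines and 5 among the non-PGCLC lines, and changed by more than 1.5 times as follows. With total reads as scaling it was 1 pooled, 0 in BG5 and 1 among lines. With microRNA reads as library size it was 1 pooled, 3 in BG5, 1 for the difference (Mir25-5p) and 2 among lines. With DESeq2 it was 1 in E14 and 2 for the difference, and with reads of 20 to 24 nt it was 3 in BG5. Without reads starting over 5 bases from the most used start, an alternative added after the values were seen, it was 4 pooled and 4 in BG5, with Mir106b-3p and Mir32-3p lost in both. The replicate block gave 1 for the difference (Mir25-5p), 6 pooled (Mir106b-5p in place of Mir32-3p), 5 in BG5 and 0 by limma for arm ratio, length, mismatches and starts, and changed no other count by over 1.5 times.

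Leaving out 1 library in turn gave 2 to 7 pooled, 0 to 2 in E14, 3 to 6 in BG5, 0 to 2 for the difference and 5 to 5 among lines. Pooled it was 2 without E14 mPGCLC replicate 1 and 3 without BG5 mPGCLC replicate 1, either E14 non-PGCLC library or BG5 non-PGCLC replicate 2. In E14 it was 2 (miR-92a-3p and Mir93-5p) without either BG5 non-PGCLC library, and in BG5 it was 3 without BG5 non-PGCLC replicate 2. For the difference it was 1 without E14 non-PGCLC replicate 1 and 2 without BG5 non-PGCLC replicate 1 or either SGET library. Arm ratio and its difference between lines ranged from 0 to 1, the 1 being miR-92a without BG5 non-PGCLC replicate 1. Mir93-5p and miR-92a-3p were called in the pooled contrast in each of these.

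Log2 changes turned direction as follows. In BG5 with total reads, Mir17-5p was -0.39, Mir20a-5p -0.12 and miR-19b-3p -0.066. In E14 with microRNA reads, Mir19a-3p was -0.0026, Mir20a-5p -0.23, miR-19b-3p -0.32, miR-92a-3p -0.040, Mir25-5p -0.57, Mir92-1-5p -0.42 and Mir93-3p -0.14. Among the more abundant arms, Mir25-5p and Mir106b-5p in E14, miR-19b-3p was -0.19 and Mir25-5p -0.092 with exact matches, and Mir25-5p was -0.027 with 20 to 24 nt, -0.15 with DESeq2 and -0.022 with the block, which also gave Mir19a-3p 0.76 pooled (-0.09 without it) and Mir20a-3p 0.61 pooled and 2.10 in E14 (-0.84 and -1.001 without it). With 1 library left out in turn, of the same arms Mir19a-3p ranged from -0.71 to 2.71 pooled, from -0.87 to 5.98 in E14 and from -1.62 to 0.054 in BG5, miR-19b-3p from -0.55 (without E14 non-PGCLC replicate 1) to 2.73 in E14, and Mir25-5p from -0.36 to 0.29 in E14. None of these arms was called in the contrast in which it turned, in the fit of the report. The cause was not tested. A library with no read of an arm allows up to 0.208 to 0.404 RPM (3 reads).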
